A study of Rattus norvegicus with 6 samples.

Results

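The genes described here encode receptors for 4 groups of neuropeptides: the neuropeptide Y receptors Npy1r, Npy2r and Npy5r, the galanin receptors Galr1 and Galr2, the PACAP and VIP receptors Adcyap1r1, Vipr1 and Vipr2, and the somatostatin receptors Sstr1 and Sstr2. They were chosen by name, and the row carrying each name was taken, a protein-coding row first and then the row with the largest count. Of the 10 genes, 8 had a row of that name among the 43350 rows of the table, and 7 of those passed the filter for testing. The expression of Galr2 and Vipr1 was not analysed here, and of these genes the promoter sequence alone was read.

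RNA of the ipsilateral lumbar dorsal root ganglia (DRG) of male Sprague-Dawley rats was sequenced 11 days after surgery. In the CCI group (chronic constriction injury, 3 libraries) loose ligatures were tied around the left sciatic nerve, and in the sham group (3 libraries) the nerve was exposed and left untied. The study compared these groups to find genes whose expression changes in a model of neuropathic pain. The library protocol of the labels speaks of a pooled sample and the labels give the sham rats no treatment, while the methods of the study state that each sample came from 1 rat and that the sham nerve was exposed.

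All these receptors are G protein-coupled receptors. The neuropeptide Y, galanin and somatostatin receptors mostly couple to inhibitory G proteins, which lower cyclic AMP and open G protein-gated potassium channels, whereas the PACAP and VIP receptors mostly couple to the stimulatory G protein and raise cyclic AMP. In sensory neurons such receptors lie on the cell body and on the peripheral and central terminals, where they adjust excitability and transmitter release. Neuropeptide Y, galanin, VIP and PACAP are known as peptides that injured sensory neurons make in larger amounts.

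The libraries held 75423546 to 87615743 counts, and the 8 receptors together took 0.0104% to 0.0136% of them. A gene was called when edgeR's quasi-likelihood test gave it a p below 0.05 before adjustment and its level differed by 0.58 or more on the log2 scale, which are the limits of the study. By that rule 2.57% of the 26663 tested rows were called higher in CCI and 1.26% were called lower. With the adjusted p held to 0.05 instead, the shares were 0.0638% and 0.03%. The share of all rows with an unadjusted p under 0.05, whatever the size of change, is not given here. Counts of genes at that limit alone are therefore descriptions. The 6 injury markers (Atf3, Sprr1a, Gap43, Jun, Sox11 and Gadd45a) were all called higher. The study had already reported these genes as higher in the same libraries, so their calls are no independent check of the model. Sprr1a passed the filter for testing through its CCI libraries alone, so its call is a description. The summed level of the 6 was 389 to 583 CPM in CCI and 186 to 192 CPM in sham. CPM is the count divided by the TMM-scaled library total and given at one scale for all libraries. The 8 pan-neuronal markers, the check of the labelled tissue, summed to 6851 to 7223 CPM in CCI and 5765 to 6830 CPM in sham.

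Among the 7 tested receptors, Npy2r was called higher in CCI, and 0 were called lower in edgeR, DESeq2 or limma. Npy1r also had an unadjusted p under 0.05 but a smaller change. With edgeR 0 of the 7 had an adjusted p under 0.05 and 2 had an unadjusted p under 0.05. DESeq2 gave 1 (Npy2r) and 3 (Npy1r, Npy2r and Galr1), against 1.76% of rows higher and 1.3% lower at its adjusted p, and limma gave 0 and 2. The median log2 fold change of the 7 was 0.12, beside 0.0055 over all rows tested, and without CCI 3 it was -0.043. In Npy1r and Npy2r every CCI library lay above every sham library, as in 8.63% of all tested rows, and in 0 of the 7 did every CCI library lie below, as in 8.7% of rows. RNA of whole ganglia cannot show whether a receptor differs in the number of cells that carry it or in the amount of RNA per cell.

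**Figure D1:**
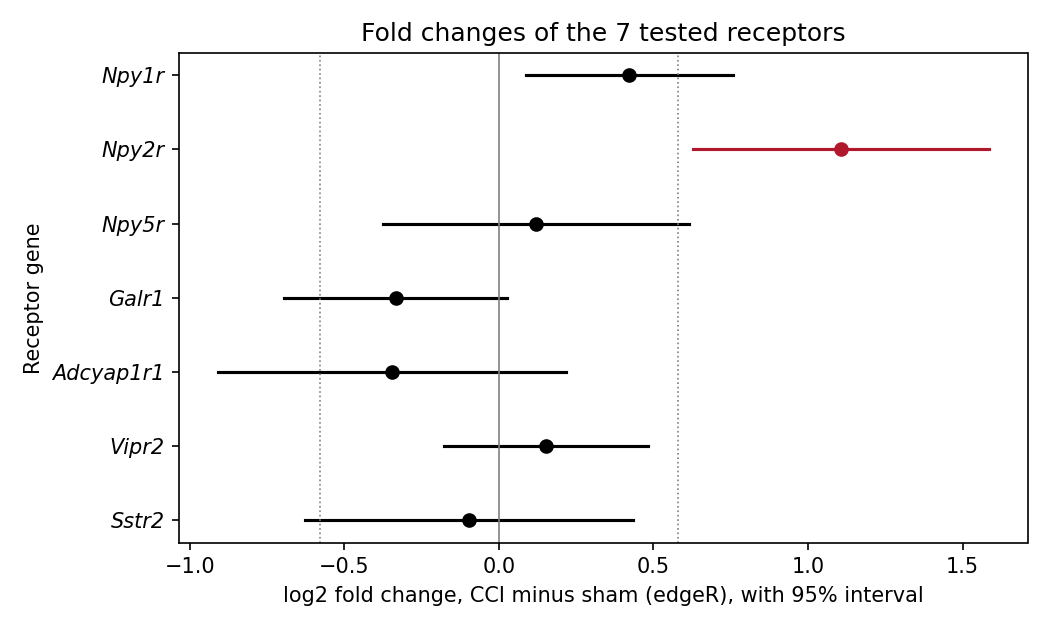
Log2 fold change (CCI minus sham, edgeR) of the 7 tested receptors, with points for the estimate, lines for the 95% interval and dotted lines at 0.58 in either direction. Only the interval of Npy2r, 0.63 to 1.59 (red), lay above 0.58 throughout, and that of Npy1r, 0.088 to 0.76, lay above 0.

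The levels of different receptors were compared as FPKM, which is per length. In sham ganglia Npy1r had the highest level, 9.45 ± 1.29 FPKM (SD, n = 3), followed by Galr1 at 4.66 ± 0.896 and Npy2r at 2.10 ± 0.196. The sham ranges of these 3 did not overlap with one another. Below them lay Vipr2, with sham values of 1.37 to 1.65, Adcyap1r1 at 1.18 ± 0.256, Sstr2 at 1.13 ± 0.163 and Npy5r at 0.873 ± 0.113 FPKM, and each of these overlapped with the next in that order. Sstr1 was lowest at 0.242 ± 0.0597 FPKM, below every sham value of Npy5r. The length implied by the counts and FPKM was 9909 bases for Galr1 and 3493 bases for Npy1r. On average Galr1 therefore drew more counts than Npy1r in sham ganglia (46.5 against 33.2 CPM), although its level per length was lower. In sham 1 the order was the other way by little (36.6 CPM for Galr1, 37.2 CPM for Npy1r).

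In CCI ganglia the means of Galr1 and Npy2r stood in the other order. Npy1r remained highest at 12.8 ± 1.87 FPKM (SD, n = 3), Npy2r followed at 4.59 ± 1.22 and Galr1 at 3.74 ± 0.268, and the ranges of the last pair overlapped. Vipr2 was at 1.69 ± 0.201, Sstr2 at 1.07 ± 0.225, Npy5r at 0.959 ± 0.188, Adcyap1r1 at 0.941 ± 0.226 and Sstr1 at 0.147 ± 0.0648 FPKM. Of the FPKM summed over the 8 receptors, Npy2r made up 17.5% ± 2.76 in CCI and 9.97% ± 1.02 in sham, and Galr1 14.6% ± 2.19 in CCI and 22.1% ± 4.73 in sham. The shares of Npy2r did not overlap between the groups, its lowest CCI share being 14.7% and its highest sham share 10.8%. Those of Galr1 (at most 16.9% in CCI, at least 17.4% in sham) and Sstr2 (at most 4.41% in CCI, at least 4.66% in sham) did not overlap either. Shares are parts of one sum, so a larger share of one receptor makes the others smaller. The FPKM of Galr1 and of Sstr2 overlapped between the groups.

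**Figure D2:**
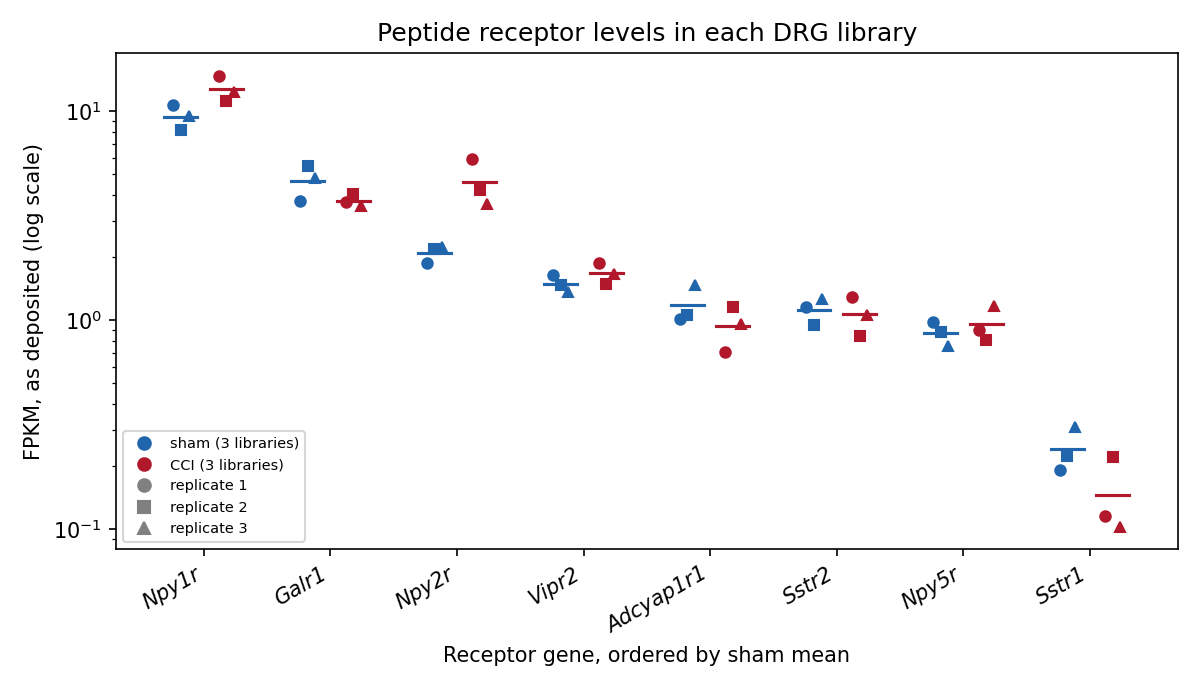
Level of each receptor in each library in FPKM on a log axis, ordered by the sham mean, with sham in blue, CCI in red, symbols for the replicates and lines for the group means. Npy2r rose from 1.88 to 2.23 FPKM in sham to 3.60 to 5.95 FPKM in CCI, while Galr1, Vipr2, Adcyap1r1, Sstr2, Npy5r and Sstr1 overlapped between the groups.

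Npy1r encodes the Y1 receptor, which is found on cell bodies of small sensory neurons and in the dorsal horn. Its row lay on chromosome 16 at 24779477 to 24788740 on the minus strand in the genome the authors call V101. The level was 51.7, 38.9 and 42.7 CPM in CCI 1, 2 and 3 and 37.2, 28.6 and 33.6 CPM in sham 1, 2 and 3. Every CCI library was above every sham library, but the lowest CCI value and the highest sham value were close. The log2 fold change was 0.42 (SE 0.14, 95% interval 0.088 to 0.76) with an unadjusted p of 0.0207 and an adjusted p of 0.357 in edgeR, under the fold limit for a call. Without CCI 1 the unadjusted p was 0.0576, and without sham 2 it was 0.0619.

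Npy2r encodes the Y2 receptor, an inhibitory receptor of the terminals of sensory neurons. Its row lay on chromosome 2 at 181528939 to 181539144 on the minus strand. The counts were 2281, 1593 and 1285 in CCI and 779, 832 and 883 in sham, or 28.1, 19.7 and 16.9 CPM against 8.86, 10.5 and 10.7 CPM. The sham libraries lay close together, and all CCI libraries stood above them, CCI 1 highest. The log2 fold change was 1.11 (SE 0.20, 95% interval 0.63 to 1.59), a 2.15-fold higher level, with an unadjusted p of 0.00109 and an adjusted p of 0.135 in edgeR. It met the limits of the study with each library left out, at log2 fold changes of 0.87 to 1.26, and the lowest of these was without CCI 1. In DESeq2 the log2 fold change was also 1.11, and it passed the adjusted threshold there.

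Npy5r encodes the Y5 receptor. The row lay on the plus strand of chromosome 16 at 24797124 to 24805079, beside Npy1r and pointing away from it, with 8383 bases between the rows. The level was 2.39, 2.13 and 3.07 CPM in CCI and 2.59, 2.35 and 2.03 CPM in sham. The groups overlapped, and the highest and the lowest library were CCI 3 and sham 3. For Npy5r the log2 fold change was 0.12 (SE 0.21, 95% interval -0.38 to 0.62, edgeR adjusted p = 0.896), an interval that still holds a change past the fold limit, and without CCI 3 it was -0.043.

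The level of Npy2r relative to Npy1r was compared within each library, since both receptors bind the same peptide. The ratio of their FPKM was 0.401, 0.376 and 0.292 in CCI 1, 2 and 3 and 0.176, 0.271 and 0.235 in sham 1, 2 and 3. Every CCI ratio was above every sham ratio. The mean log2 ratio was 0.66 higher in CCI, with p = 0.1 in a two-sided exact permutation test, the smallest p that 3 against 3 libraries allow, and p = 0.2 after adjustment over the 2 ratios that could be computed.

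**Figure D3:**
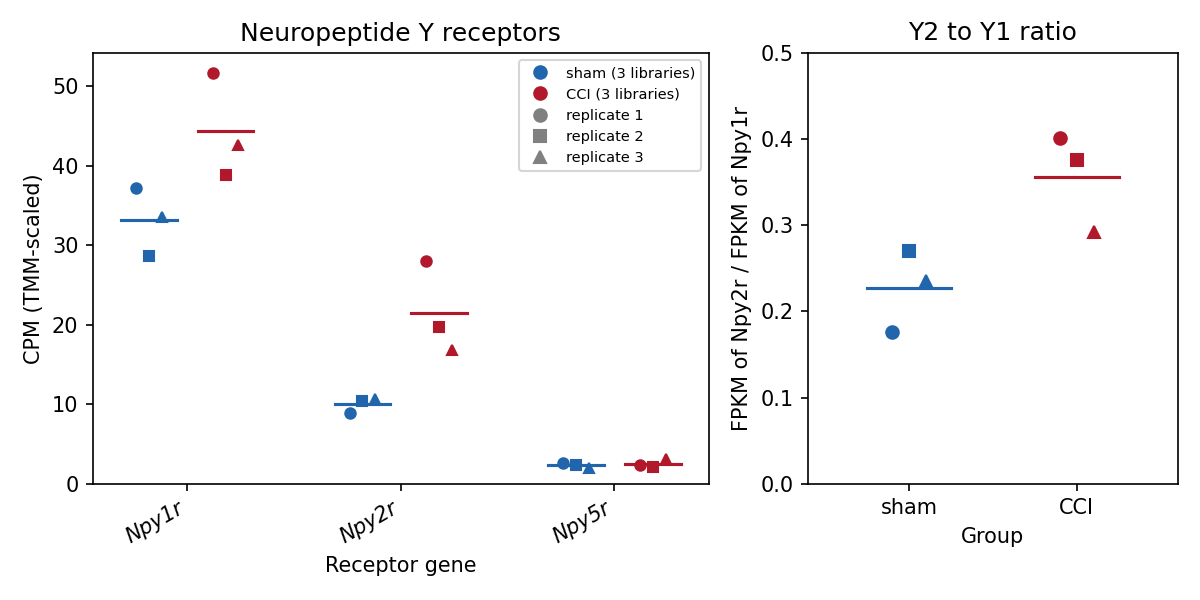
Left, level of the neuropeptide Y receptors in each library in CPM; right, ratio of Npy2r to Npy1r FPKM in each library, with sham in blue, CCI in red, symbols for the replicates and lines for the group means. Npy2r separated the groups at 16.9 CPM and above against 10.7 CPM and below, and the ratio did so at 0.292 and above against 0.271 and below.

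Galr1 encodes an inhibitory galanin receptor. The row lay on chromosome 18 at 79236392 to 79258570 on the minus strand. The level was 36.3, 39.8 and 34.5 CPM in CCI and 36.6, 54.8 and 48.0 CPM in sham. The CCI libraries lay close together, below sham 2 and sham 3, and sham 1 lay among them. The log2 fold change was -0.33 (SE 0.15, 95% interval -0.69 to 0.025) with an unadjusted p of 0.0636 and an adjusted p of 0.502 in edgeR. Without sham 1 the log2 fold change was -0.48 with an unadjusted p of 0.00355, and without sham 2 it was -0.20 with an unadjusted p of 0.200, both under the fold limit.

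A row named LOC103690156 carried a description as galanin receptor 2, but it covered 81.0 kb of chromosome 10, from 105156632 to 105237611, and joined several transcripts, so it was not read as Galr2. Its level was 8.39, 6.86 and 7.62 CPM in CCI and 8.22, 8.25 and 8.30 CPM in sham, and its log2 fold change was -0.12 (SE 0.12, edgeR adjusted p = 0.803).

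Adcyap1r1 encodes PAC1, the receptor selective for PACAP. The row lay on chromosome 4 at 85662892 to 85711696 on the plus strand. The level was 4.97, 8.13 and 6.76 CPM in CCI and 7.14, 7.54 and 10.6 CPM in sham. The groups overlapped, and CCI 1, where the ligand gene Adcyap1 was highest, was the lowest of the 6 libraries. Adcyap1r1 showed a log2 fold change of -0.35 (SE 0.23, 95% interval -0.91 to 0.22) with an adjusted p of 0.686 in edgeR.

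Vipr2 encodes VPAC2, which binds both VIP and PACAP. On chromosome 6 its row spanned 143938040 to 144008072 on the plus strand. The level was 8.96, 7.04 and 7.87 CPM in CCI and 7.81, 7.06 and 6.60 CPM in sham. CCI 1 and CCI 3 were above all sham libraries, the latter by little, and CCI 2 lay among the sham values. For Vipr2 the log2 fold change was 0.15 (SE 0.14, 95% interval -0.18 to 0.48, edgeR adjusted p = 0.775), and its interval did not reach the fold limit.

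Sstr2 encodes an inhibitory somatostatin receptor. Its row lay on chromosome 10 at 102136283 to 102143434 on the plus strand, wholly within a row on the other strand that joins Slc39a11 and Fam104a and held 17312 counts over the 6 libraries, against 1234 for Sstr2. The kit marks strand, but whether the counting used it is not given in the sources used here, so the count of Sstr2 is less certain than the others. The level was 2.96, 1.93 and 2.41 CPM in CCI and 2.66, 2.20 and 2.95 CPM in sham, and the groups overlapped almost fully. Between the groups the log2 fold change was -0.10 (SE 0.22, 95% interval -0.63 to 0.44, edgeR adjusted p = 0.927), and without CCI 2 it was 0.048 and without sham 3 it was 0.0033.

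Sstr1, another inhibitory somatostatin receptor, had a mean of 0.194 FPKM, under the filter of 0.5. Its row lay on chromosome 6 at 79254339 to 79258611 on the plus strand. The counts were 41, 77 and 34 in CCI and 73, 77 and 111 in sham, and CCI 2 had the same count as sham 2. In a fit without the filter, which called 2.54% of 35757 rows higher and 1.3% lower, the log2 fold change was -0.72 (SE 0.39, 95% interval -1.65 to 0.21) with an adjusted p of 0.680 in edgeR, not a call. The log2 ratio of Sstr2 to Sstr1 differed by 0.69 between the groups (p = 0.4, two-sided exact permutation test, 0.4 after adjustment).

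Of 8 other receptors of these families, Npy6r was not analysed here, and Galr3 and Sstr5 had 0 counts in all 6 libraries, which allows up to 3 counts in each. Npy4r, Sctr (the secretin receptor) and Kiss1r (the kisspeptin receptor) had at most 21 counts in a library. Sstr4, an inhibitory somatostatin receptor, was the one gene of this list that passed the filter, and it passed through its CCI libraries, with a mean of 0.873 FPKM in CCI, 0.174 in sham and 0.524 over all 6. A gene that enters in this way had to be higher in CCI, so its call is given as a description. Its counts were 253, 82 and 93 in CCI and 29, 41 and 21 in sham, or 3.11, 1.02 and 1.22 CPM against 0.330, 0.516 and 0.254 CPM. All CCI libraries were above all sham libraries, and CCI 1 stood far above the other two. For Sstr4 the log2 fold change was 2.28 (SE 0.53, edgeR, unadjusted p of 0.00441 and adjusted p of 0.222), and without CCI 1 it was 1.61, still a call.

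Sstr3, also a somatostatin receptor, was under the filter. Its counts were 140, 96 and 99 in CCI and 33, 8 and 27 in sham, so that the groups did not overlap. Without the filter the log2 fold change was 2.38 (SE 0.50) with an unadjusted p of 0.00208 and an adjusted p of 0.210 in edgeR, a call by the limits of the study. The mean level of Sstr3 in CCI was 0.330 ± 0.0663 FPKM and that of Sstr4 0.873 ± 0.566 FPKM (SD, n = 3), beside 1.07 ± 0.225 FPKM for Sstr2. The CCI ranges of Sstr4 and Sstr2 overlapped, and in CCI 1 Sstr4 was the higher of them.

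**Figure D4:**
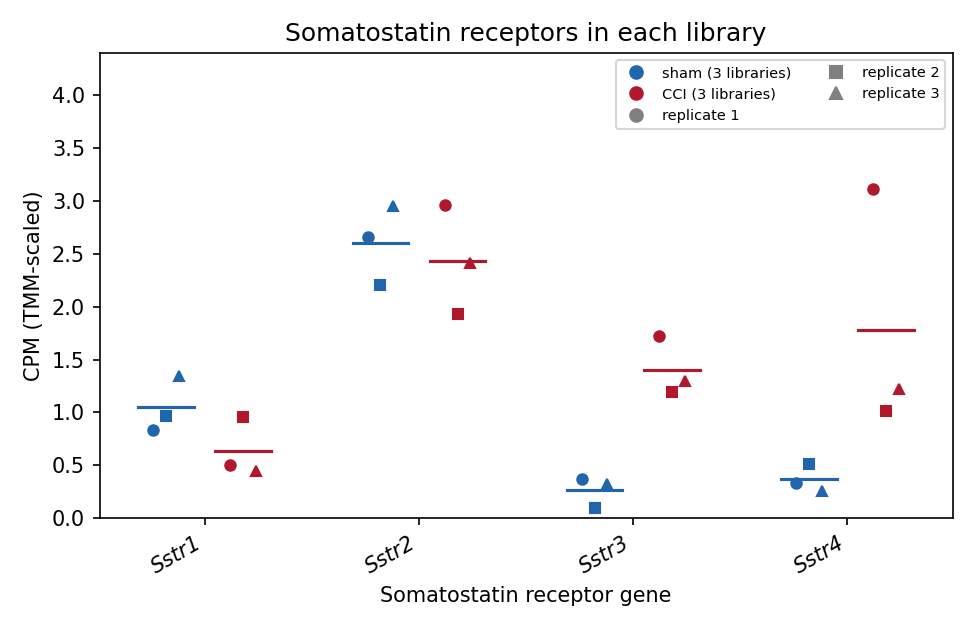
Level of 4 somatostatin receptors in each library in CPM, with sham in blue, CCI in red, symbols for the replicates and lines for the group means. Sstr3 and Sstr4 were above 1 CPM in each CCI library and at or below 0.516 CPM in each sham library, whereas Sstr1 and Sstr2 overlapped between the groups.

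Promoter sequences of all 10 receptor genes were read from RefSeq (GRCr8), 250 bases before to 50 bases after each start. They are shown because cyclic AMP, the messenger these receptors act on, is known to drive transcription through the cyclic AMP response element (TGACGTCA), and injury-induced Atf3 and Jun bind that element or the AP-1 motif (TGACTCA). Both strands were searched. The full element was found in 1.83% of 33469 promoters and in 1 of these 10, that of Sstr2. The AP-1 motif was found in 4.63% of promoters and in 0 of the 10. The shorter motif TGACG, which lies within the full element, was found in 21.2% of promoters and in 4 of the 10, those of Npy1r, Sstr1, Sstr2 and Vipr1. Npy2r held none of the 3 motifs in this window. The windows below show the motif in capitals, as the full element TGACGTCA in Sstr2 and as CGTCA, the reverse complement of TGACG, in the others, with the build GRCr8 and the gene's strand.
Npy1r, chr16:27813508-27813537, minus strand: ctcgtggggtgcCGTCAcatgatcctggat
Sstr1, chr6:81567456-81567485, plus strand: ctcgcaaaagaaCGTCAgagcgccgccaga
Sstr2, chr10:99163269-99163298, plus strand: ccaagctgccgTGACGTCAcgggtgggggc
Vipr1, chr8:130187684-130187713, plus strand: aacctctccgccCGTCAgacgagcccccgc
The motif began 138 bases before the start in Npy1r, 73 bases in Sstr2, 65 bases in Vipr1 and 15 bases in Sstr1. Of the 3 holders with values here, Npy1r and Sstr2 were not called, nor was Sstr1 in the fit without the filter. Since 2.57% of tested rows were called higher and 1.26% lower, 0 calls among so few genes says nothing about the motif. A part of the motifs in any change was not tested.

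The ligands were examined beside their receptors. Of 10 ligand genes, 5 were tested and 4 of them were called higher (Vip, Npy, Gal and Adcyap1), beside 2.57% of all tested rows. Vip passed the filter through its CCI libraries alone, as Sstr4 did, so its place in this count is a description. Npy counts were 6018, 3280 and 2650 in CCI and 68, 51 and 58 in sham, a log2 fold change of 6.14 (SE 0.36, edgeR adjusted p = 0.00490). Gal counts were 6767, 2526 and 2998 against 167, 165 and 236, a log2 fold change of 4.49 (SE 0.43, edgeR adjusted p = 0.0383). Beside these, the log2 fold changes of their receptors were 1.11 for Npy2r, 0.42 for Npy1r and -0.33 for Galr1.

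Adcyap1, which encodes PACAP, had counts of 12494, 9984 and 7322 in CCI and 4760, 4816 and 4949 in sham. Its log2 fold change was 1.10 (SE 0.17, edgeR, unadjusted p of 0.000412 and adjusted p of 0.103), while that of its receptor Adcyap1r1 was -0.35 and not a call. Vip had counts of 1344, 374 and 240 in CCI and 0, 0 and 8 in sham, at or near the limit of detection in sham ganglia. Its mean was 0.0148 FPKM in sham and 2.01 over all 6 libraries, so it passed the filter of 0.5 through CCI. Such a gene had to be higher in CCI, so its call, with an adjusted p of 0.109 in edgeR, is a description. Sst, the somatostatin gene, had counts of 1157, 1167 and 1122 in CCI and 1396, 869 and 1332 in sham, and its log2 fold change was 0.016 (SE 0.16, 95% interval -0.36 to 0.39, edgeR adjusted p = 0.984), and without sham 2 it was -0.14. The other ligands Pyy and Ppy were at 0 counts in all 6 libraries, Galp and Spx were under the filter, and Cort was not analysed here.

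**Figure D5:**
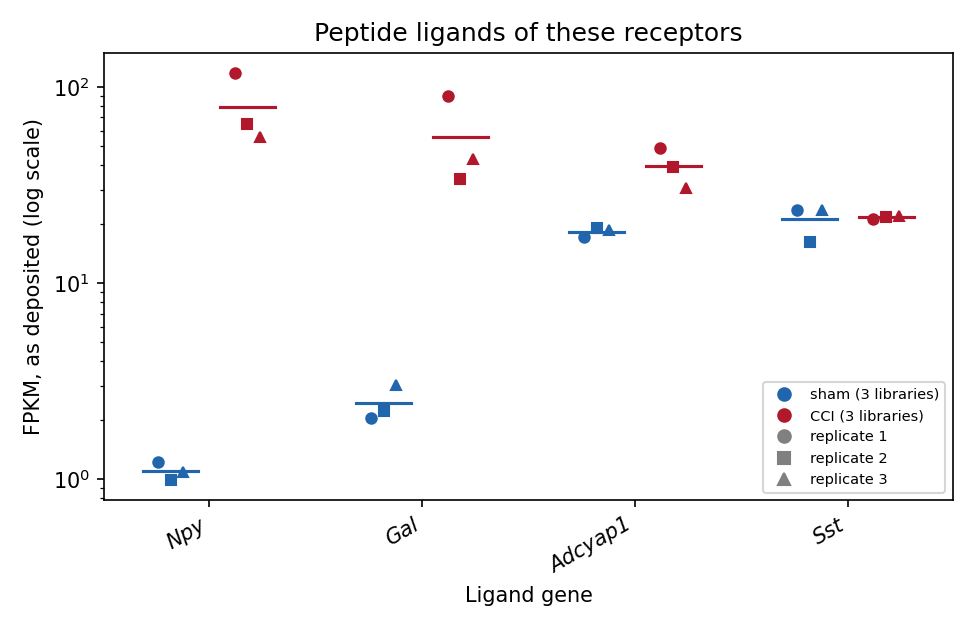
Level of 4 ligand genes in each library in FPKM on a log axis, with sham in blue, CCI in red, symbols for the replicates and lines for the group means. Npy, Gal and Adcyap1 separated the groups and were highest in CCI 1, while Sst stayed between 16.1 and 23.7 FPKM in all 6 libraries.

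Genes acting downstream of the receptors, and peptide-cleaving enzymes, showed 0 calls in edgeR, DESeq2 and limma alike. In edgeR 2.57% of all tested rows were called higher and 1.26% lower, so 0 calls in short lists says little. Of 13 G protein subunits 4 had an unadjusted p under 0.05 in edgeR, with log2 fold changes over the list of -0.24 to 0.29 and a median of 0.046. Of 9 adenylyl cyclases 1 did, with log2 fold changes of -0.087 to 0.23. For the 4 G protein-gated potassium channels, which inhibitory receptors open, that number was 0, and the median log2 fold change was -0.19. In Kcnj3 and Kcnj6 every CCI library lay below every sham library, as in 8.7% of all tested rows. Their log2 fold changes were -0.30 and -0.27, with adjusted p-values of 0.558 and 0.582 in edgeR. In Kcnj5 and Kcnj9 the groups overlapped, at log2 fold changes of -0.11 and 0.063. Kcnj3 and Kcnj6 were named after their values were seen. Of 9 receptor kinases, arrestins and accessory proteins 3 had an unadjusted p under 0.05, and of 5 peptide-cleaving enzymes 0 did. Without CCI 2, 1 of these enzymes was called lower.

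Several other measures moved with the groups. Of 10 macrophage markers 6 were called higher, beside 2.57% of all tested rows. The study had already reported Cx3cr1, Cd68 and Csf1r among them as higher in these data. The 10 markers summed to 124 to 185 CPM in CCI and 89.4 to 117 CPM in sham. Of 8 skeletal muscle markers 6 were called lower, beside 1.26% of all tested rows. The 8 markers summed to 54.0 to 63.3 CPM in CCI and 74.3 to 479 CPM in sham, sham 1 being highest. Tnni2 among them, with a log2 fold change of -11.1 in edgeR, passed the filter through its sham libraries alone. Such a gene had to be lower in CCI, so its call is a description. The muscle calls rested on few libraries, since 1 of the 8 was called without sham 1, 2 without CCI 2 or without CCI 3, and 1 in limma. Of 8 large neuron markers 1 was called lower, beside 1.26% of all tested rows. This was Pvalb, which is also 1 of the 6 called genes of the muscle list. Of the large neuron markers 4 had an unadjusted p under 0.05 in edgeR and 5 lay lower in every CCI library than in every sham library, with a median log2 fold change of -0.26 and sums of 4884 to 6606 CPM in CCI and 6908 to 8385 CPM in sham. The number of them called was 3 without CCI 2 and 2 without sham 1 or without sham 2. Of 7 T cell markers only Cd4 passed the filter, and it was called higher (log2 fold change 0.68, SE 0.14, edgeR adjusted p = 0.172). The sums over the list were 14.7 to 19.9 CPM in CCI and 11.4 to 11.8 CPM in sham. With 6 of the 7 untested, the list cannot show whether T cells differed. Of 9 nociceptor markers 0 were called in edgeR, DESeq2 or limma, although 5 had an unadjusted p under 0.05 in edgeR. In 5 nociceptor markers every CCI library lay below every sham library and in 1 above, with a median log2 fold change of -0.15 over the list. Over all tested rows 8.7% lay below in this way and 8.63% above. Satellite glia, Schwann cell, endothelial and fibroblast markers had 0 calls in edgeR, DESeq2 and limma, and the numbers with an unadjusted p under 0.05 in edgeR were 0, 1, 1 and 0. The 6 somatostatin and pruriceptor neuron markers, a class that carries Sst, had 0 calls in edgeR and limma and 1 in DESeq2. CCI 1 had the highest injury and macrophage marker sums and the highest level of 4 of the 8 receptors. The part of these measures in the change of Npy2r was not tested.

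The rows whose log2 CPM ran most like a receptor over the 6 libraries were listed for the 3 receptors of highest level, as a description. The points share library and group, and 19372 rows with a symbol were compared. For Npy1r they were Ewsr1, Gsta6 and St8sia3 with a Pearson correlation of 0.993, 0.989 and 0.987. For Galr1 they were Pik3r4, Mars1 and Mdh1 at 0.998, 0.994 and 0.993. For Npy2r they were Rhoq, Azin2 and Tmsb15b2 at 0.998, 0.997 and 0.997. A high correlation does not mean a change of like size. The Mdh1 row had a mean of only 0.954 FPKM and a log2 fold change of -5.52 in edgeR, beside -0.33 for Galr1. A correlation over 0.9 was reached by 244 rows for Npy1r, 217 for Galr1 and 566 for Npy2r, so that the rows named are a few of many.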

How the data were processed

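Ribosomal RNA-depleted RNA of 6 DRG samples was sequenced in paired ends. The authors mapped reads to the rat genome V101 with HISAT, assembled them with StringTie, and deposited the number of reads per gene row and sample as counts without normalization. The authors also deposited FPKM values, which are those counts scaled by library size and by length. The build behind V101 is not given in the sources used here. Versions in the submitters' processing notes are HISAT2 2.0 and StringTie 1.3.0. The authors' columns of fold changes and p-values were not used.

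The 26663 rows whose FPKM averaged 0.5 or more were tested with edgeR 4.0.16 (TMM factors of 0.988 to 1.01, glmQLFit, glmQLFTest, group only), with Benjamini-Hochberg adjustment over all rows tested. The calling limits are those of the study. Rows without a symbol, 6849 in number, held 5.37% to 5.72% of the counts and stayed in the fit as assembled loci. Total counts of 75423546 to 87615743 set the precision, and counting limits cover counting error only. The methods of the study give each sample its own rat, so p-values measure the spread between rats, technical spread included. The library protocol of the labels speaks of a pooled sample, and if that holds the spread may be technical.

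Alternatives were DESeq2 1.42.0 and its size factors, limma 3.58.1 on log2(FPKM + 1), a stricter filter (FPKM averaging 1 or more), no filter, rows summed per symbol, a replicate block, and leaving out each library. The script was tested on simulated data. The receptors and gene lists were chosen with earlier results of these data known. All receptors and ligands were named, then at most 4 called genes of any other list by size and the 3 most correlated rows for 3 receptors. The injury markers were named in full. They are genes the study reported as higher in these same libraries, so their calls do not check the model independently. No protein sequences were used here. R 4.3.3 and Python 3.11.15 were used.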

Additional observations from a re-analysis of the deposited data

How the results depend on the processing

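Of the 10 chosen receptors, which leave out Sstr3 and Sstr4, Npy2r was the 1 called higher in edgeR as reported and under all 13 alternatives. Of these receptors 0 were called lower under any alternative, by edgeR, DESeq2 or limma. The log2 fold change of Npy2r ranged from 0.83 (limma on log2(FPKM + 1), a scale that understates changes of low genes) to 1.26 (without CCI 3). The median log2 fold change of the tested receptors ranged from -0.043 to 0.23 with each library left out and took the negative sign without CCI 3. The difference in log2 ratio of Npy2r to Npy1r ranged from 0.48 to 0.80 with each library left out, and that of Sstr2 to Sstr1 from 0.41 to 1.19. Replicate numbers did not pair the samples, since the correlations of same-numbered deviations were -0.011, -0.022 and -0.055. With a replicate block the median was 0.11 and Npy2r was still called, while the differences in log2 ratio, 0.66 and 0.69, cannot differ under the block in a balanced design. Of 413 alternative values for 32 named genes, 387 kept direction and side of the limits, and 22 kept direction alone, all of skeletal muscle genes or Pvalb. The other 4, of genes not called in any of these fits, took the other sign: Npy5r (-0.043 without CCI 3, with a range of -0.043 to 0.23 over the left-out libraries), Sstr2 (0.048 without CCI 2 and 0.0033 without sham 3, range -0.26 to 0.048) and Sst (-0.14 without sham 2, range -0.14 to 0.11). The cause was not tested. The 3 libraries in each group and counts of at most 111 for Sstr1 limit what could be detected there.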
